A study of Homo sapiens with 21 samples.

Results

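Collagen chain genes encode the polypeptides that fold by threes into collagen molecules. Their transcripts were measured here in IMR90 cells, cultured fibroblasts of human lung. The genes were taken by symbol: COL, a number, A and a number, with a value above 0 in at least 3 of the 21 libraries. Of the 16383 genes in the table, 40 symbols had that form and 39 met the rule; COL11A2 was at 0 in every library. COL24A1, COL6A5, COL22A1 and COL28A1 are not analysed here. Genes that reached 10 normalised reads in 3 or more libraries were tested, which left 31 of the 39 among 11579 genes in all. COL8A2, COL17A1, COL10A1, COL25A1, COL4A4, COL9A3 and COL2A1 were among the 31 with at most 40 reads in any library, so they are described by their reads. Such a gene can have been tested only through a group where it is high. The 8 that were not tested were COL21A1, COL4A3, COL20A1, COL6A6, COL23A1, COL9A1, COL19A1 and COL26A1, and none of them exceeded 11 reads in any library.

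The 21 libraries were poly(A)-selected RNA in 7 groups of 3. Proliferating IMR90 cells received no treatment. The other 6 groups were irradiated to make them senescent, given 5 nM siRNA by transfection on day 4 and again on day 7, and collected on day 10. The siRNAs were NT3 or NT4, which target no gene, or were directed at CCND1 (cyclin D1), at CDK4, at CDK6, or at CDK4 with CDK6 (the dual knockdown). Every irradiated group therefore shares irradiation and transfection, and against proliferating cells the effects of these treatments cannot be told apart. IMR90 is 1 line, the labels name 1 siRNA per target, and they do not say that libraries of a group came from separate cultures, so p-values measure the spread between these libraries, which may be technical.

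The values are normalised read counts, that is, reads divided by a size factor of the library, and each library summed to between 12892442 and 21822152 recovered reads over the table. The targeted transcripts were lowered as labelled: CCND1 stood at 11.8% of the mean of the 6 NT3 and NT4 libraries in its knockdown. CDK4 stood at 8.67% in its own knockdown and 9.41% in the dual knockdown, and CDK6 at 16.4% and 20.6%. All 8 fibroblast markers (VIM, PDGFRA, PDGFRB, THY1, DCN, LUM, FAP and S100A4) were tested in every group, with summed values of 80873 to 144877. Summed epithelial markers did not exceed 55.0 and summed endothelial markers 48.2. NT3 replicate 3 stood apart from the other control libraries, with the lowest collagen share of all 21 (3.58% of its summed values). The numbers in the column headers put 1 library of each irradiated group in each of 3 consecutive sets, and the library of the middle set had the highest COL1A1, COL1A2 and COL3A1 values in 6 of 6 groups. What the numbers stand for is not given in the sources used here, and proliferating libraries lie outside these sets.

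Fibrillar collagens (types I, II, III, V, XI, XXIV and XXVII) assemble into the banded fibrils that give lung and skin their tensile strength, with types V and XI in the fibril core where they limit its diameter. Type IV forms the sheet of basement membranes, type VI a beaded filament around cells, and the fibril-associated collagens coat fibrils without making fibrils themselves. Chains are hydroxylated and folded in the endoplasmic reticulum, secreted as procollagen, trimmed of their propeptides and cross-linked outside the cell by lysyl oxidases.

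Collagen chain genes made up 5.33 to 5.44% of the summed values of each proliferating library. The share was 3.58 to 4.53% in NT3, 4.53 to 4.67% in NT4, 4.40 to 4.78% in the CCND1 knockdown, 4.58 to 4.92% in the CDK4 knockdown and 4.33 to 4.52% in the CDK6 knockdown. Dual knockdown libraries held 5.24 to 6.31%, above every other irradiated library. COL1A1, COL1A2 and COL3A1 made up 66.8% ± 1.5 (SD, n = 3) of the collagen signal in the dual knockdown against 53.0% ± 0.573 (SD, n = 3) in proliferating cells. In the other irradiated groups their mean part was 60.2% (NT3), 61.5% (NT4), 60.9% (CCND1 knockdown), 62.3% (CDK4 knockdown) and 60.5% (CDK6 knockdown). Without those 3 genes, the collagen share was 2.51 to 2.55% in proliferating libraries and 1.32 to 2.01% across the irradiated ones. The total share thus overlapped between dual knockdown and proliferating libraries, while the share of the remaining chains was lower in every irradiated library. These shares were not tested, being sums over the chosen genes.

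**Figure D1:**
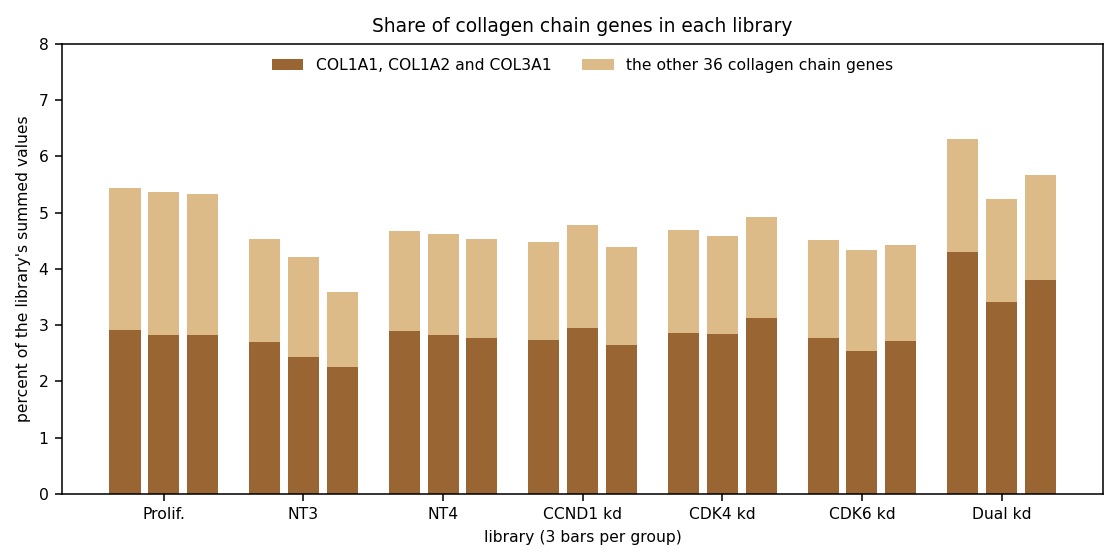
Share of collagen chain genes in the summed values of each of the 21 libraries (percent; 3 bars per group), split into COL1A1, COL1A2 and COL3A1 and the other 36 genes. Dual knockdown bars reach 5.24 to 6.31% and proliferating bars 5.33 to 5.44%, and the upper segment is larger in proliferating libraries.

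Per kilobase of exon, COL1A1 had the highest mean level over the 21 libraries, 28474 normalised reads per kilobase, followed by COL1A2 at 17674. The type VI genes COL6A1 and COL6A2 came next at 7633 and 6203, ahead of COL3A1 at 4032 and COL6A3 at 3912. COL5A2 (3001), COL12A1 (2467), COL4A1 (1652), COL4A2 (1351) and COL5A1 (1088) completed the 11 most abundant collagen genes on this scale. The length used is that of all GENCODE exons of a gene merged, 21516 bases for COL6A3 and 5334 for COL6A2. It can exceed that of the expressed transcript, so the order holds for this length only. Undivided by length, the mean of COL6A3 (84172) lay above those of COL6A1 (42257), COL6A2 (33089) and COL3A1 (27248). By normalised read count, not divided by length, COL1A1 had the highest value of the table in every library.

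Fold changes are differences of group means of log2(value + 1), given ± SE, and a gene is said to rise or fall where its Benjamini-Hochberg adjusted p in limma, over all 11579 genes, was under 0.05. The controls are the mean of NT3 and NT4. In the controls against proliferating cells, 9 collagen genes were higher and 17 lower, where 32.6% and 36.1% of all tested genes were. The higher genes include 4 of the 7 with at most 40 reads. The median change of the 31 was -0.25 against -0.03 over all genes. By class, 3 of 3 type VI genes, 6 of 9 fibrillar genes, 3 of 5 fibril-associated genes and 2 of 2 multiplexins were lower, and 3 of 5 basement membrane genes were higher. Changes on this scale understate those of low genes.

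Against the controls, the CCND1 knockdown had 9 collagen genes higher and 1 lower (all genes: 16.7% and 14.4%). The CDK4 knockdown had 2 higher and 2 lower (all genes: 8.46% and 7.55%). In the CDK6 knockdown 9 were higher and 4 lower (all genes: 21.1% and 20.8%), and in the dual knockdown 14 and 6 (all genes: 22.5% and 21.5%). Genes with at most 40 reads account for 1 of the lower calls in the CDK6 knockdown and 3 in the dual knockdown. In the dual knockdown 6 of 9 fibrillar genes were higher and 1 was lower. Median changes of the 31 genes were 0.18, 0.11, 0.15 and 0.14 in that order, where the medians over all genes were -0.01, 0.00, -0.01 and 0.00. Without NT3 replicate 3 the CDK4 knockdown had 3 higher and 5 lower, and the other knockdown counts moved by at most 1 in total. These 4 comparisons share their control libraries, so their values are set side by side and not correlated.

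Several chains differed between the controls. NT4 against NT3, non-targeting siRNAs both, differed in 10 collagen genes, 8 higher and 2 lower in NT4, where 14.7% and 13.1% of all genes were called. COL18A1 (0.90), COL9A2 (0.87) and COL13A1 (0.86) had the 3 largest differences.

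**Figure D2:**
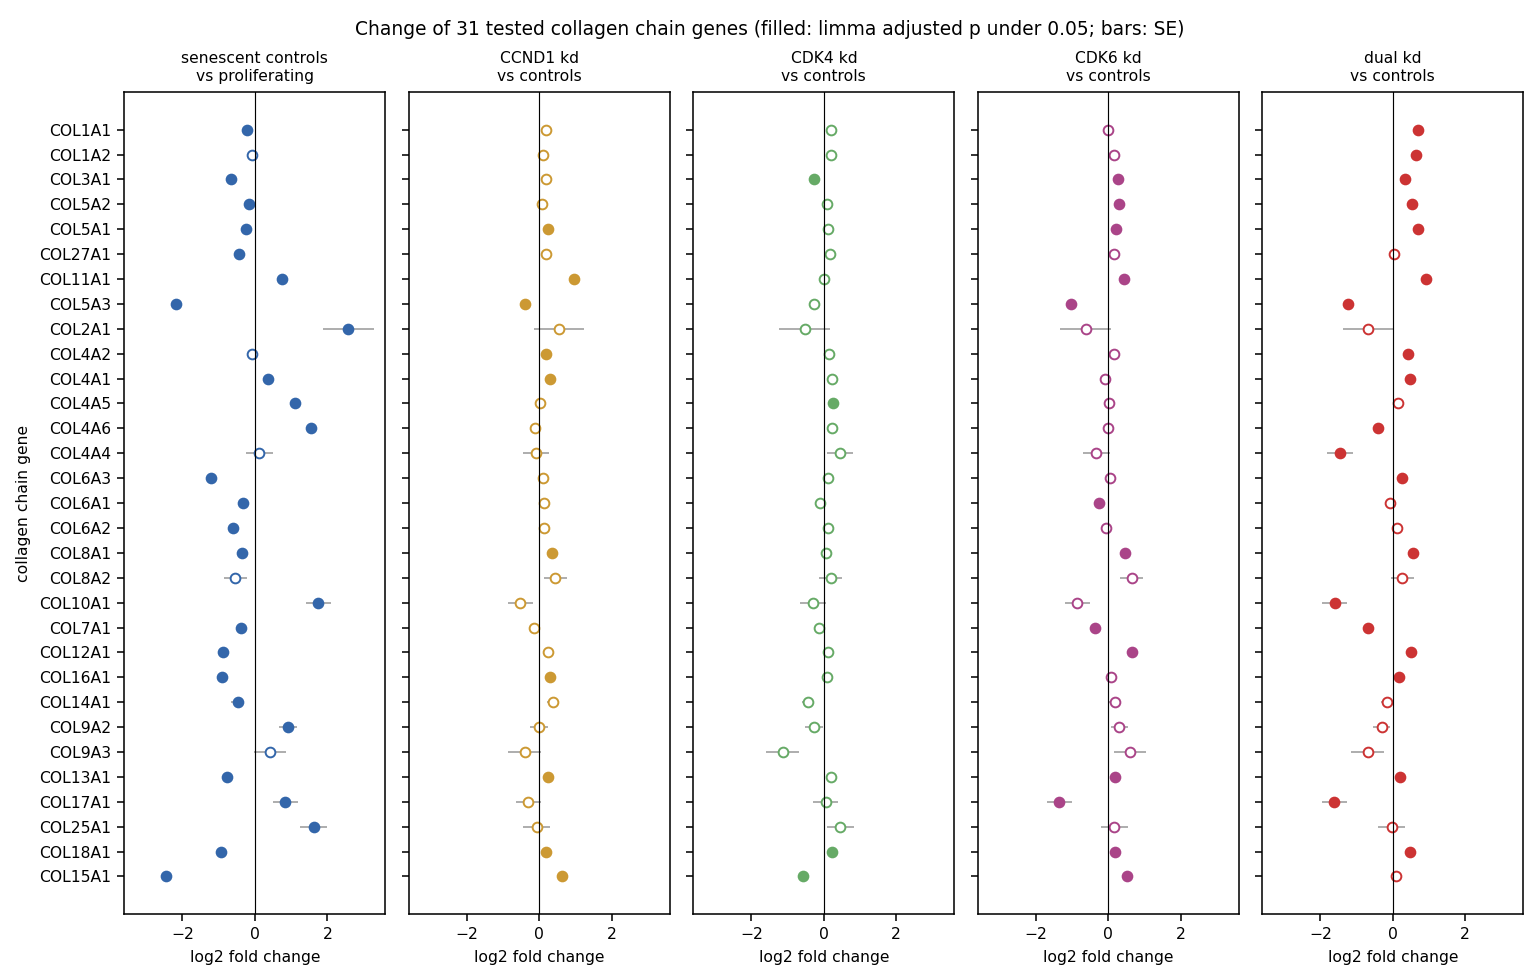
Log2 fold change (x axis) with its SE of each of the 31 tested collagen chain genes (y axis, by structural class) in the senescent controls against proliferating cells and in each knockdown against the controls. Filled points passed the limma threshold: 26, 10, 4, 13 and 20 genes from left to right.

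**Figure D3:**
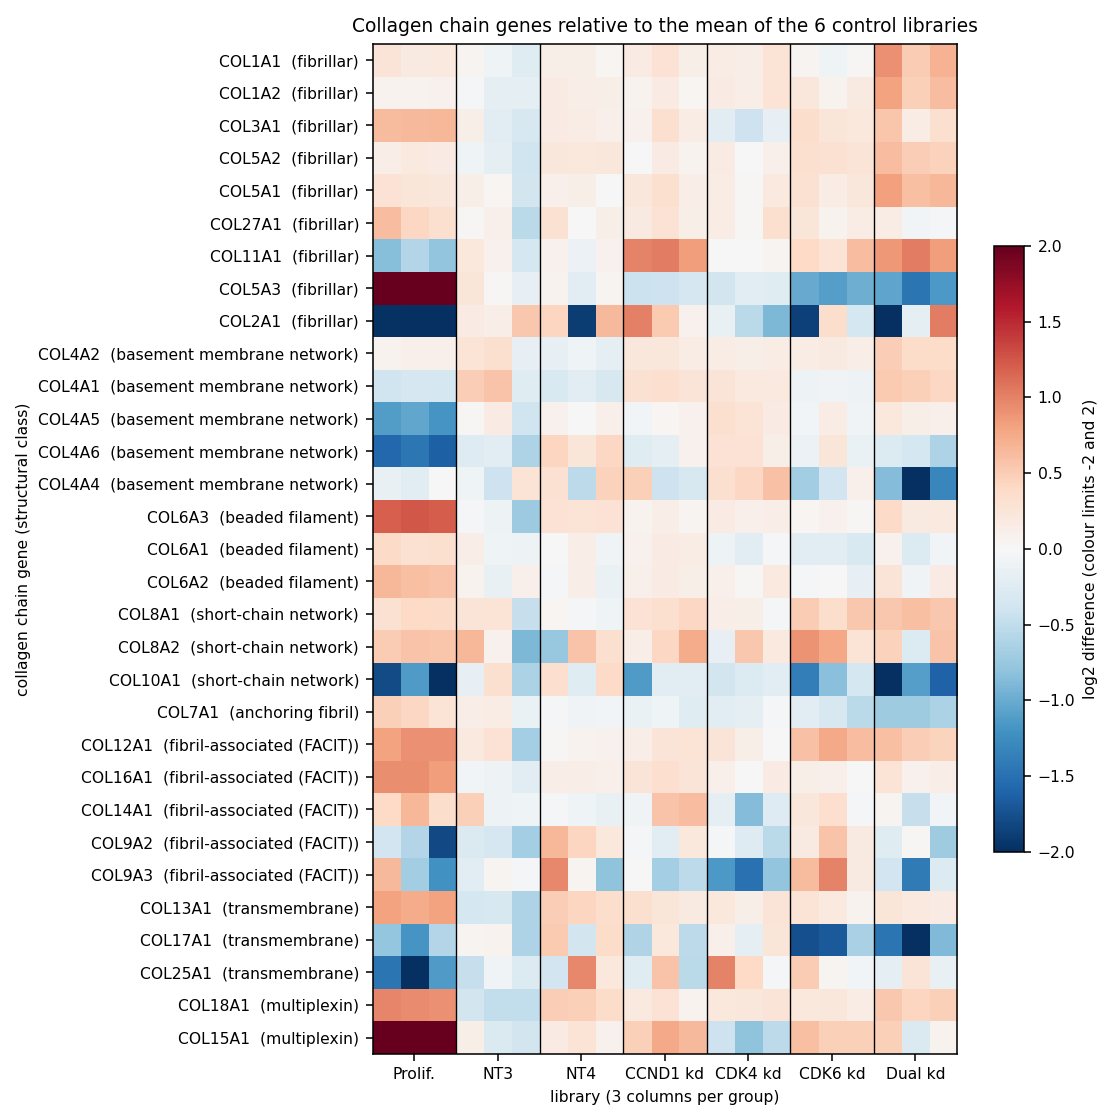
Log2 level of each library relative to the average control library for the 31 tested genes (rows) in 21 libraries (columns, 3 per group), with colours limited to -2 and 2. COL5A3 and COL15A1 lie past the colour limit in all proliferating libraries, and COL1A1, COL1A2, COL5A1 and COL5A2 are higher than the control mean in all dual knockdown libraries.

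Type I collagen is made of COL1A1 and COL1A2 chains and is the main fibril collagen of fibroblasts. COL1A1 was at 265548, 251065 and 254025 in proliferating cells, 231786, 209967 and 186736 in NT3 and 241664, 239820.0 and 227238 in NT4. Its values were 247743, 270672 and 239940.0 in the CCND1 knockdown, 246219, 243842 and 268066 in the CDK4 knockdown, 230937, 209670.0 and 226378 in the CDK6 knockdown and 419002, 314749 and 360767 in the dual knockdown. All dual knockdown libraries lay above every other library, and all proliferating libraries lay above every control library. Changes against the controls were 0.19 ± 0.09 in the CCND1 knockdown, 0.19 ± 0.09 in the CDK4 knockdown, 0.00 ± 0.09 in the CDK6 knockdown and 0.71 ± 0.09 in the dual knockdown, and only the dual knockdown passed (limma adjusted p = 8.41e-07). COL1A1 was lower in the controls than in proliferating cells (-0.21 ± 0.09, limma adjusted p = 0.0350), a call that missed the threshold without any proliferating library or NT4 replicate 3 (adjusted p up to 0.114), and with no filter on low values, under median centring, under quantile normalization, with only the compared groups fitted or against NT4 alone (up to 1). COL1A1 ranks highest in every library, so quantile normalization gives it 1 value in all of them and every COL1A1 call is lost by construction.

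COL1A2 was at 176671, 176778 and 178527 in proliferating cells, 165667, 146605 and 147942 in NT3 and 187683, 184370.0 and 182517 in NT4. It stood at 175842, 188874 and 172919 in the CCND1 knockdown, 188217, 183969 and 204316 in the CDK4 knockdown, 196106, 177442 and 190032 in the CDK6 knockdown and 294850.0, 235283 and 258265 in the dual knockdown. Proliferating values fell within the range of the controls (-0.08 ± 0.07), and the dual knockdown lay above all other groups. Side by side, the changes were 0.09 ± 0.07 in the CCND1 knockdown, 0.19 ± 0.07 in the CDK4 knockdown, 0.16 ± 0.07 in the CDK6 knockdown and 0.64 ± 0.07 in the dual knockdown, of which the last passed (limma adjusted p = 3.60e-07). NT4 exceeded NT3 by 0.27 ± 0.08 (limma adjusted p = 0.0197), which missed the threshold without NT4 replicate 1 (adjusted p up to 0.0657), and with no filter on low values, under quantile normalization or with only the compared groups fitted (up to 0.473).

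Type III collagen is a trimer of COL3A1 chains that forms thin fibrils together with type I. COL3A1 was at 36849, 37311 and 37597 in proliferating cells, 25844, 20561 and 18914 in NT3 and 26484, 26198 and 25468 in NT4. The knockdowns gave 25253, 29457 and 26171 in the CCND1 knockdown, 20448, 17777 and 21269 in the CDK4 knockdown, 30369, 28085 and 27464 in the CDK6 knockdown and 34772, 26188 and 29738 in the dual knockdown. Proliferating libraries were the highest of all, and the CDK6 knockdown lay above every control library while the CDK4 and dual knockdowns overlapped the controls. COL3A1 was lower in the controls than in proliferating cells (-0.65 ± 0.09, limma adjusted p = 1.12e-06). It fell in the CDK4 knockdown (-0.26 ± 0.09, limma adjusted p = 0.0476), rose in the CDK6 knockdown by 0.27 ± 0.09 (limma adjusted p = 0.0177) and rose in the dual knockdown by 0.34 ± 0.09 (limma adjusted p = 0.00358). The CDK4 call missed the threshold without NT3 replicate 1, any NT4 library or CDK4 knockdown replicate 1 or 2 (adjusted p up to 0.290), and with no filter on low values, with only the compared groups fitted, against NT3 alone or with only the irradiated groups fitted (up to 0.391). The CDK6 call missed the threshold without CDK6 knockdown replicate 1 (adjusted p up to 0.0963), and under quantile normalization or against NT4 alone (up to 0.345), and the dual knockdown call missed the threshold without dual knockdown replicate 1 (adjusted p up to 0.0560), and under quantile normalization or against NT4 alone (up to 0.297). Compared directly, COL3A1 was higher in the CDK6 than in the CDK4 knockdown by 0.53 ± 0.10, limma adjusted p = 3.08e-04.

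**Figure D4:**
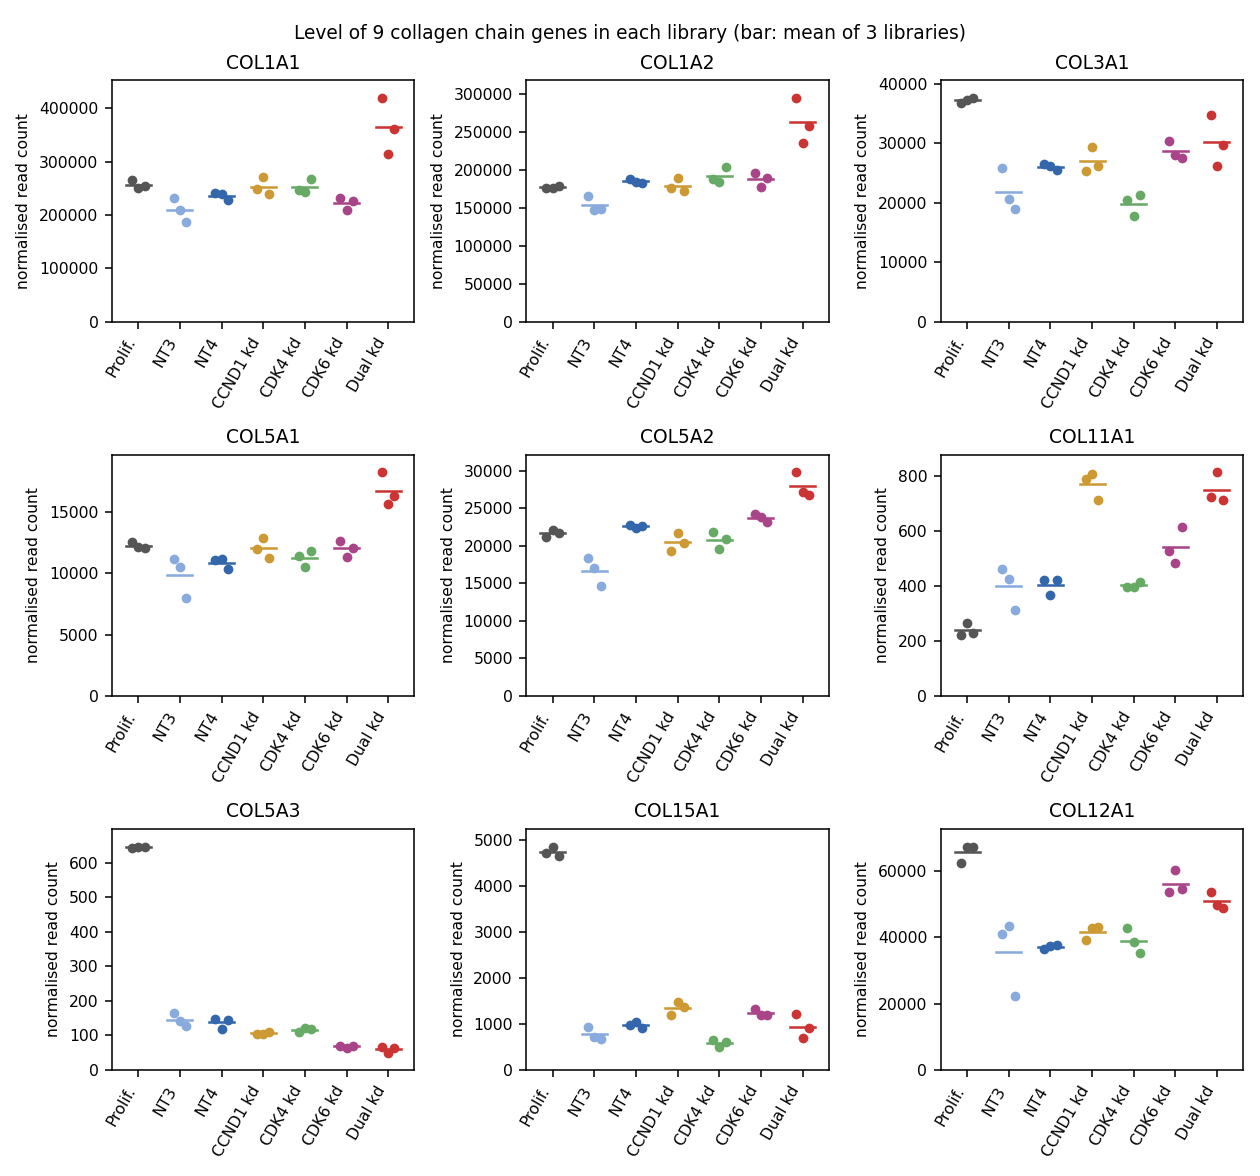
Normalised read count of 9 collagen chain genes in each library (points) by group, with the mean of 3 libraries as a bar; each y axis starts at 0. COL1A1, COL1A2, COL5A1 and COL5A2 are highest in the dual knockdown, and COL5A3 and COL15A1 are highest in proliferating cells.

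Types V and XI regulate fibril diameter and share chains: COL5A1, COL5A2, COL5A3 and COL11A1 can combine in mixed trimers. COL5A1, the main type V chain, was at 12561, 12114 and 12053 in proliferating cells, 11156, 10514 and 7946 in NT3 and 11038, 11136 and 10319 in NT4. It reached 11993, 12869 and 11267 in the CCND1 knockdown, 11414, 10478 and 11806 in the CDK4 knockdown, 12661, 11350.1 and 12037 in the CDK6 knockdown and 18220.3, 15680.1 and 16295 in the dual knockdown. The dual knockdown lay above every other library, and the CCND1 and CDK6 knockdowns lay narrowly above every control library. COL5A1 rose in the dual knockdown by 0.70 ± 0.08, limma adjusted p = 3.60e-07. It also rose in the CCND1 knockdown by 0.23 ± 0.08 (limma adjusted p = 0.0360) and in the CDK6 knockdown by 0.22 ± 0.08 (limma adjusted p = 0.0291). The CCND1 call missed the threshold without NT4 replicate 3 or CCND1 knockdown replicate 1 or 2 (adjusted p up to 0.182), and with no filter on low values, under quantile normalization, with only the compared groups fitted, against NT4 alone or with only the irradiated groups fitted (up to 0.531), and the CDK6 call missed the threshold without NT4 replicate 3 or CDK6 knockdown replicate 1 or 3 (adjusted p up to 0.135), and under quantile normalization, with only the compared groups fitted or against NT4 alone (up to 0.340). The CDK6 change was 0.15 without NT3 replicate 3. In the controls it was lower than in proliferating cells (-0.25 ± 0.08, limma adjusted p = 0.00827), which missed the threshold under median centring, under quantile normalization or against NT4 alone (adjusted p up to 0.120).

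COL5A2, the partner chain of COL5A1, was at 21183, 22108 and 21675 in proliferating cells, 18338, 17012 and 14666 in NT3 and 22738, 22350.1 and 22659 in NT4. Its values reached 19349, 21638 and 20345 in the CCND1 knockdown, 21776, 19541 and 20882 in the CDK4 knockdown, 24227, 23861 and 23137 in the CDK6 knockdown and 29768, 27211 and 26795 in the dual knockdown. All NT4 libraries lay above all NT3 libraries, and the CDK6 and dual knockdowns lay above both controls. NT4 exceeded NT3 by 0.44 ± 0.07, limma adjusted p = 6.64e-05. COL5A2 rose in the dual knockdown by 0.53 ± 0.06 (limma adjusted p = 3.88e-07) and in the CDK6 knockdown by 0.29 ± 0.06 (limma adjusted p = 5.18e-04), the latter being a call that missed the threshold under quantile normalization or against NT4 alone (adjusted p up to 0.476). Its difference from proliferating cells was -0.16 ± 0.06 (limma adjusted p = 0.0226) but 0.061 with NT4 alone as the control, and the call missed the threshold without proliferating replicate 2 or 3 (adjusted p up to 0.0828), and under median centring, with only the compared groups fitted or against NT4 alone (up to 0.474).

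COL11A1, a type XI chain best known from cartilage, moved opposite to most fibrillar chains in the controls against proliferating cells. COL11A1 was at 220.1, 265 and 229 in proliferating cells, 464, 424 and 312 in NT3 and 424, 366 and 421 in NT4. It was at 792, 809.8 and 713 in the CCND1 knockdown, 398, 396 and 413 in the CDK4 knockdown, 526, 485 and 614 in the CDK6 knockdown and 726, 815 and 716 in the dual knockdown. Proliferating libraries were the lowest of all, the CDK4 knockdown lay within the controls, and the CCND1, CDK6 and dual knockdowns lay above them. COL11A1 was higher in the controls than in proliferating cells by 0.75 ± 0.10, limma adjusted p = 1.40e-06. It rose by 0.95 ± 0.10 in the CCND1 knockdown (limma adjusted p = 6.12e-07), by 0.43 ± 0.10 in the CDK6 knockdown (limma adjusted p = 0.00181) and by 0.91 ± 0.10 in the dual knockdown (limma adjusted p = 3.00e-07). In the CDK4 knockdown its change was 0.01 ± 0.10 (limma adjusted p = 0.956).

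COL5A3, the least abundant of the type V chains per kilobase, had the opposite pattern. COL5A3 was at 641, 646 and 646 in proliferating cells, 166, 143 and 126 in NT3 and 148, 119.7 and 146 in NT4. It was at 104.2, 105.6 and 110.9 in the CCND1 knockdown, 108.9, 122 and 119 in the CDK4 knockdown, 69.2, 65.2 and 70.9 in the CDK6 knockdown and 67.3, 50.2 and 63.1 in the dual knockdown. Every irradiated library lay far below the proliferating ones, and the CCND1, CDK6 and dual knockdowns lay below every control library. COL5A3 was lower in the controls than in proliferating cells (-2.19 ± 0.11, limma adjusted p = 9.07e-14). It fell further in the CCND1 knockdown (-0.39 ± 0.11, limma adjusted p = 0.00823), the CDK6 knockdown (-1.03 ± 0.11, limma adjusted p = 1.47e-07) and the dual knockdown (-1.22 ± 0.11, limma adjusted p = 8.03e-09), and its change in the CDK4 knockdown was -0.27 ± 0.11 (limma adjusted p = 0.0930). Exons of COL5A3 share 3.98% of their bases with a gene on the opposite strand, and the strand setting of the counting is not given in the sources used here.

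The bases upstream of a RefSeq start of COL5A1, COL5A3 and COL11A1 are shown because COL5A1 and COL11A1 rose in the dual knockdown while COL5A3 fell. Sequences are from RefSeq (GRCh38.p14), 5′ to 3′ on the strand of the gene, and capitals mark GGGCGG (the core of the GC box), CCAAT or TATAAA on either strand.
COL5A1, chr9:134641683-134641802, plus strand: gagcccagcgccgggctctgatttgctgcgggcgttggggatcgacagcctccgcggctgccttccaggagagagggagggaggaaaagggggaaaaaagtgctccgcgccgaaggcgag
COL5A3, chr19:10010505-10010624, minus strand: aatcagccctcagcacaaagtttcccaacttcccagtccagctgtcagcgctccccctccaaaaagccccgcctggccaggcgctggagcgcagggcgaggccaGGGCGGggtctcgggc
COL11A1, chr1:103108523-103108642, minus strand: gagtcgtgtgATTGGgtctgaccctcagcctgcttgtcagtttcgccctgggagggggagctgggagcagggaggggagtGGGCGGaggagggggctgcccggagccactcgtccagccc
In these 120 bases COL5A3 and COL11A1 each hold a GGGCGG and COL11A1 also a CCAAT on the opposite strand (ATTGG). The 120 bases of COL5A1, upstream of the first of its 2 listed starts, hold none of the 3 motifs. Over the 250 bases upstream, GGGCGG was found for 19 of the 29 collagen genes with an entry and in 42.6% of 35116 promoters. COL5A1, COL5A3 and COL11A1 are all among these 19. CCAAT was found for 9 of the 29 and in 32.0% of promoters, and TATAAA for 7 and in 10.7%. A gene with several starts has several promoters in the table, and a match is a description of letters only.

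COL27A1, a fibrillar chain of cartilage and other tissues, was higher in all proliferating libraries (705, 616 and 577) than in any control library (318 to 569). Its difference in the controls was -0.45 ± 0.11, limma adjusted p = 0.00111, and no knockdown call was made. COL2A1, the cartilage fibril chain, had 1, 0 and 0 reads in proliferating libraries, 7, 10 and 8 in NT3 and 8, 1 and 11 in NT4. All but 1 of the control libraries lay above the proliferating range of reads.

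Type IV collagen is the network of basement membranes, and its chains are encoded by head-to-head gene pairs. COL4A1 and COL4A2, which form the common 2-to-1 trimer, lie on opposite strands of chromosome 13 with 126 bases between their RefSeq starts. The longest stretch between these starts that no GENCODE exon covers, 100 bases, is printed (GRCh38.p14, strand of COL4A2, capitals as above). It is shown because both chains rose together in the dual knockdown.
COL4A1/COL4A2, chr13:110307158-110307257: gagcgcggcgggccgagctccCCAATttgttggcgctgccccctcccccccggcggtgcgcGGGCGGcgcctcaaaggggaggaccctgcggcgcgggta
This stretch holds a CCAAT and a GGGCGG and no TATAAA.

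COL4A1 was at 16894, 17771 and 17566 in proliferating cells, 31443, 33371 and 19021 in NT3 and 18156, 19366 and 17915 in NT4. It was at 27627, 28382 and 26833 in the CCND1 knockdown, 26717, 25668 and 25614 in the CDK4 knockdown, 20926, 21342 and 20769.9 in the CDK6 knockdown and 32072, 31253 and 29806 in the dual knockdown. The proliferating libraries were the lowest, NT3 held both the highest and a low library, and every knockdown lay within the range of the controls. COL4A1 was higher in the controls than in proliferating cells by 0.36 ± 0.11 (limma adjusted p = 0.00474) but by 0.09 against NT4 alone, where the call was lost. NT4 was lower than NT3 (-0.55 ± 0.12, limma adjusted p = 0.00194), a call that missed the threshold with only the compared groups fitted (adjusted p up to 0.117). COL4A1 rose by 0.47 ± 0.11 in the dual knockdown (limma adjusted p = 0.00112) and by 0.30 ± 0.11 in the CCND1 knockdown (limma adjusted p = 0.0350). The CCND1 call missed the threshold without NT4 replicate 1 or 3 or any CCND1 knockdown library (adjusted p up to 0.118), and with no filter on low values, under quantile normalization, with only the compared groups fitted, against NT3 alone or with only the irradiated groups fitted (up to 0.890), and the dual knockdown call missed the threshold against NT3 alone (adjusted p up to 0.209). The CCND1 change was 0.17 without NT3 replicate 3.

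COL4A2 was at 24613, 25052 and 25098 in proliferating cells, 28295, 29163 and 20932 in NT3 and 21039.6, 22175 and 20643 in NT4. The knockdowns stood at 27344, 27425 and 25892 in the CCND1 knockdown, 26034, 25312 and 25999 in the CDK4 knockdown, 26074, 26424 and 25642 in the CDK6 knockdown and 33075, 30146 and 30245 in the dual knockdown. Only the dual knockdown lay above all other libraries, and proliferating values fell within the controls (-0.09 ± 0.07). COL4A2 rose in the dual knockdown by 0.41 ± 0.07, limma adjusted p = 1.06e-04. It rose in the CCND1 knockdown by 0.20 ± 0.07 (limma adjusted p = 0.0446), which missed the threshold without NT4 replicate 1 or 3 or any CCND1 knockdown library (adjusted p up to 0.142), and with no filter on low values, under quantile normalization, with only the compared groups fitted, against NT3 alone or with only the irradiated groups fitted (up to 0.629). NT4 was lower than NT3 (-0.28 ± 0.08, limma adjusted p = 0.0163), which missed the threshold without NT3 replicate 1 or 2 or NT4 replicate 1 or 3 (adjusted p up to 0.0781), and with only the compared groups fitted (up to 0.226). The CCND1 change was 0.12 without NT3 replicate 3, and the difference between the controls was -0.43 without NT3 replicate 3.

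COL4A5 and COL4A6, a pair on the X chromosome whose products join in the basement membranes of skin, smooth muscle and other tissues, had the largest rises among the tested type IV genes in the controls against proliferating cells. COL4A5 was at 1355, 1421 and 1291 in proliferating cells, 2984, 3284 and 2227 in NT3 and 3106, 2943 and 3156 in NT4. It was at 2808, 3023 and 3112 in the CCND1 knockdown, 3647, 3524 and 3269 in the CDK4 knockdown, 2826, 3242 and 2801 in the CDK6 knockdown and 3401, 3168 and 3147 in the dual knockdown. All irradiated libraries lay above all proliferating ones, and the knockdowns overlapped the controls. COL4A5 was higher in the controls by 1.11 ± 0.08, limma adjusted p = 1.12e-10. Its rise in the CDK4 knockdown, 0.25 ± 0.08 (limma adjusted p = 0.0472), missed the threshold without any NT4 library or any CDK4 knockdown library (adjusted p up to 0.196), and with no filter on low values, with only the compared groups fitted, against NT4 alone or with only the irradiated groups fitted (up to 0.268).

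COL4A6 was at 239, 259 and 229 in proliferating cells, 595, 615 and 459.9 in NT3 and 955, 843 and 941 in NT4. It was at 597, 619 and 752 in the CCND1 knockdown, 870.4, 866 and 766 in the CDK4 knockdown, 655, 841 and 645 in the CDK6 knockdown and 589, 556 and 461 in the dual knockdown. NT4 lay above NT3 in every library, the CDK4 knockdown lay above NT3 and overlapped NT4, and the dual knockdown overlapped NT3. COL4A6 was higher in the controls than in proliferating cells by 1.55 ± 0.11, limma adjusted p = 2.16e-11, and in NT4 than in NT3 by 0.72 ± 0.12, limma adjusted p = 1.45e-04. It fell in the dual knockdown (-0.41 ± 0.11, limma adjusted p = 0.00320), but its change was -0.05 against NT3 alone, where the call was lost. COL4A4, a chain of the kidney glomerular membrane, had 8, 9 and 9 reads in NT3, 10, 6 and 13 in NT4 and 4, 1 and 3 in the dual knockdown. Every dual knockdown library lay below every control library. COL4A3, its head-to-head partner, was not tested and reached at most 11 reads.

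Type VI collagen, a microfilament near cell surfaces in muscle, skin and lung, is built from COL6A1, COL6A2 and COL6A3 chains. All 3 were lower in the controls than in proliferating cells. COL6A3, the longest chain, was at 154207, 158779 and 156209 in proliferating cells, 65461, 62705 and 40709 in NT3 and 82199.8, 81599 and 82173 in NT4. It stood at 70892, 73362 and 70175 in the CCND1 knockdown, 75143, 71738 and 73489 in the CDK4 knockdown, 68869.9, 71203 and 68282 in the CDK6 knockdown and 87307, 75916 and 77194 in the dual knockdown. All irradiated libraries lay far below all proliferating ones, NT4 lay above NT3, and the dual knockdown overlapped NT4. COL6A3 was lower in the controls (-1.22 ± 0.10, limma adjusted p = 3.23e-10) and higher in NT4 than in NT3 by 0.57 ± 0.11, limma adjusted p = 6.71e-04. Its dual knockdown call, 0.25 ± 0.10 (limma adjusted p = 0.0423), reversed to -0.036 against NT4 alone, and missed the threshold without any NT4 library or any dual knockdown library (adjusted p up to 0.205), and with no filter on low values, under quantile normalization, with only the compared groups fitted, against NT4 alone or with only the irradiated groups fitted (up to 0.940). The change was 0.14 without NT3 replicate 3, and the difference between the controls was 0.36 without NT3 replicate 3.

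COL6A1 was at 54468, 51775 and 52379.6 in proliferating cells, 45907, 39486 and 38700.4 in NT3 and 41428, 45931 and 39661 in NT4. It was at 44193, 46788 and 46488 in the CCND1 knockdown, 38978, 36086 and 40883 in the CDK4 knockdown, 35758, 35581 and 33784 in the CDK6 knockdown and 44347, 34675 and 40105 in the dual knockdown. Proliferating libraries were the highest and the CDK6 knockdown lay below every control library. The difference in the controls was -0.34 ± 0.07, limma adjusted p = 2.67e-04. COL6A1 fell in the CDK6 knockdown (-0.25 ± 0.07, limma adjusted p = 0.00746). COL6A2 was at 47131, 45532 and 44553 in proliferating cells, 31478, 27015 and 31895 in NT3 and 29211, 32711 and 27385 in NT4. It was at 32112, 33425 and 32328 in the CCND1 knockdown, 31935, 30275 and 34365 in the CDK4 knockdown, 28970.2, 30076 and 26525 in the CDK6 knockdown and 35881, 28551 and 33512 in the dual knockdown. All proliferating libraries lay above all irradiated ones, and no knockdown moved it past the threshold. The difference in the controls was -0.61 ± 0.07, limma adjusted p = 1.87e-07.

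A ratio of partner chains within a library does not depend on the size factor. COL4A1/COL4A2 was 0.699 ± 0.0116 in proliferating cells, 1.05 ± 0.128 in NT3 and 0.868 ± 0.0052 in NT4 (SD, n = 3 each). COL6A1/COL6A2 was 1.16 ± 0.0193 in proliferating cells, 1.38 ± 0.142 in NT3 and 1.42 ± 0.0225 in NT4; NT3 replicate 3 was at 1.21 and the other NT3 libraries at 1.46. The latter ratio was 1.20 ± 0.0172 in the CDK4 knockdown, 1.23 ± 0.0455 in the CDK6 knockdown and 1.22 ± 0.0196 in the dual knockdown. COL1A1/COL1A2 had its lowest mean, 1.18 ± 0.00702, in the CDK6 knockdown and its highest, 1.45 ± 0.0471, in proliferating cells. Of 15 exact two-sided permutation tests over 84 splits (3 ratios, 5 comparisons), 6 gave p = 0.0119 to 0.0357, where 0.0119 is the smallest p possible, and none passed adjustment (lowest adjusted p = 0.0893).

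**Figure D5:**
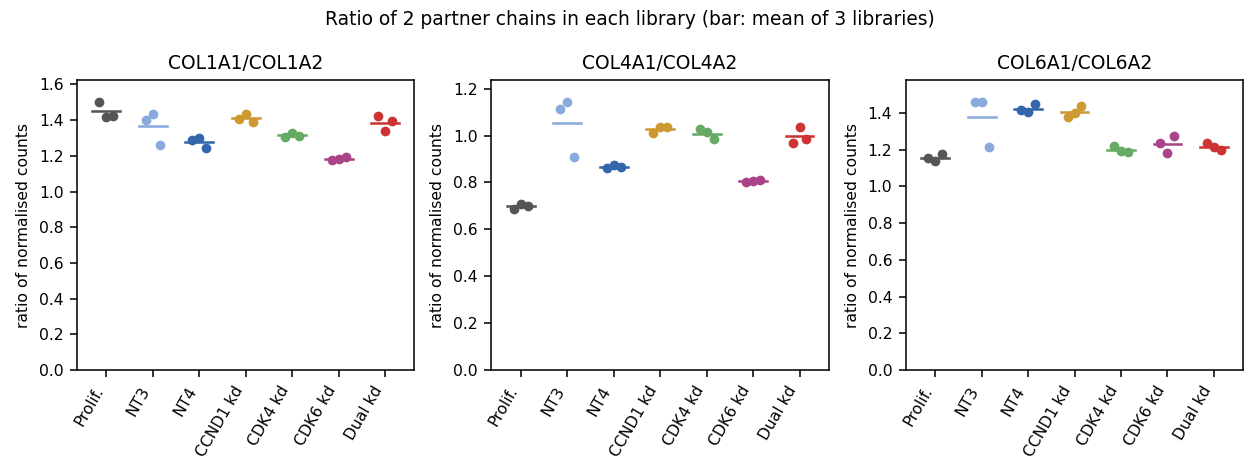
Ratio of normalised read counts of partner chains in each library (points) by group, with the mean of 3 libraries as a bar. COL4A1/COL4A2 is lowest in proliferating libraries (0.686 to 0.709), and COL6A1/COL6A2 in the CDK4, CDK6 and dual knockdowns lies between 1.18 and 1.27.

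Fibril-associated collagens decorate the surface of type I fibrils. COL12A1, the most abundant of them here, was at 62314, 67144 and 67276 in proliferating cells, 40849.8, 43467 and 22308 in NT3 and 36347, 37453 and 37768 in NT4. It reached 39023, 42786 and 43213 in the CCND1 knockdown, 42637, 38613 and 35269 in the CDK4 knockdown, 53681, 60344 and 54453 in the CDK6 knockdown and 53767, 49829 and 48705 in the dual knockdown. Proliferating libraries were the highest, the CDK6 and dual knockdowns lay above every control library, and NT3 replicate 3 was the lowest library of all. COL12A1 was lower in the controls than in proliferating cells (-0.88 ± 0.13, limma adjusted p = 3.96e-06). It rose in the CDK6 knockdown by 0.66 ± 0.13 (limma adjusted p = 3.87e-04) and in the dual knockdown by 0.51 ± 0.13 (limma adjusted p = 0.00327). The latter call missed the threshold under quantile normalization (adjusted p up to 0.0815).

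COL14A1, a related chain of interstitial matrix, was at 259, 309.7 and 251 in proliferating cells, 272, 182 and 183 in NT3 and 189, 183 and 176 in NT4. The knockdowns were at 185, 291 and 300.3 in the CCND1 knockdown, 170.5, 106.6 and 164 in the CDK4 knockdown, 228, 247 and 189.7 in the CDK6 knockdown and 203, 142 and 187 in the dual knockdown. Controls overlapped proliferating cells, and the CDK4 knockdown lay below the CDK6 knockdown without overlap. COL14A1 was lower in the controls than in proliferating cells (-0.48 ± 0.17, limma adjusted p = 0.0185), which missed the threshold without proliferating replicate 2 (adjusted p up to 0.103), and under median centring, under quantile normalization or against NT3 alone (up to 0.0967). It was higher in the CDK6 than in the CDK4 knockdown by 0.61 ± 0.20 (limma adjusted p = 0.0200), which missed the threshold without CDK4 knockdown replicate 2 or CDK6 knockdown replicate 1 or 2 (adjusted p up to 0.152).

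COL16A1, a minor fibril-associated chain, fell from 3292, 3261 and 3059 in proliferating cells to 1488 to 1882 in the control libraries, with no overlap (-0.90 ± 0.05, limma adjusted p = 2.02e-12). It rose in the CCND1 knockdown by 0.28 ± 0.05 (limma adjusted p = 3.79e-04), a call that missed the threshold against NT4 alone (adjusted p up to 0.0669). COL16A1 also rose in the dual knockdown by 0.16 (limma adjusted p = 0.0164). That call missed the threshold without dual knockdown replicate 1 (adjusted p up to 0.154). It also did so under quantile normalization, with only the compared groups fitted or against NT4 alone (up to 0.605). NT4 exceeded NT3 by 0.24 (limma adjusted p = 0.00622), which missed the threshold with only the compared groups fitted (adjusted p up to 0.107). COL9A2, a type IX chain of cartilage, was at 41.9, 36.2 and 15.1 in proliferating cells, 44.6, 43.3 and 34.0 in NT3 and 87.9, 74.0 and 63.5 in NT4, so NT4 lay above both other groups. It was higher in the controls than in proliferating cells by 0.92 ± 0.24, limma adjusted p = 0.00213, a call that missed the threshold without proliferating replicate 3 (adjusted p up to 0.0513), and against NT3 alone (up to 0.132), and the change without proliferating replicate 3 was 0.48. NT4 exceeded NT3 by 0.87 ± 0.28 (limma adjusted p = 0.0254), a call that missed the threshold without NT3 replicate 3 or NT4 replicate 1 or 2 (adjusted p up to 0.105). COL9A3 did not exceed 17 reads in a library.

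Short-chain collagens form networks, and type VII forms anchoring fibrils. COL8A1, a network-forming chain of vessel walls and eye, was at 1491, 1587 and 1561 in proliferating cells, 1433, 1449 and 877 in NT3 and 1239.8, 1179.5 and 1136 in NT4. It was at 1467, 1501 and 1597 in the CCND1 knockdown, 1313, 1308 and 1173 in the CDK4 knockdown, 1702, 1534 and 1739.8 in the CDK6 knockdown and 1755, 1816 and 1752 in the dual knockdown. The CCND1, CDK6 and dual knockdowns lay above every control library, and proliferating libraries did too. COL8A1 was lower in the controls than in proliferating cells (-0.36 ± 0.10, limma adjusted p = 0.00407). It rose by 0.46 ± 0.10 in the CDK6 knockdown (limma adjusted p = 0.00119), 0.56 ± 0.10 in the dual knockdown (limma adjusted p = 1.63e-04) and 0.34 ± 0.10 in the CCND1 knockdown (limma adjusted p = 0.0169). The last call missed the threshold without CCND1 knockdown replicate 3 (adjusted p up to 0.0780), and with only the compared groups fitted (up to 0.106), and the change was 0.22 without NT3 replicate 3.

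COL7A1, the chain of the anchoring fibrils below the epidermis, was at 1956, 1871 and 1707 in proliferating cells, 1543, 1569 and 1282 in NT3 and 1383, 1349 and 1359 in NT4. It was at 1287, 1325 and 1187 in the CCND1 knockdown, 1222, 1237 and 1386 in the CDK4 knockdown, 1220.4, 1135 and 969.5 in the CDK6 knockdown and 861, 860.4 and 909 in the dual knockdown. Values were highest in proliferating cells and lowest in the dual knockdown, whose libraries lay below every other library. COL7A1 was lower in the controls than in proliferating cells (-0.38 ± 0.07, limma adjusted p = 8.61e-05). It fell in the CDK6 knockdown (-0.35 ± 0.07, limma adjusted p = 5.63e-04) and in the dual knockdown (-0.69 ± 0.07, limma adjusted p = 1.44e-07). COL10A1, the chain of growth plate cartilage, had 5, 7 and 3 reads in proliferating libraries, 15, 31 and 9 in NT3, 20, 15 and 24 in NT4 and 3, 7 and 5 in the dual knockdown. Every control library had more reads than every proliferating or dual knockdown library. COL8A2, the partner of COL8A1, had 9 to 40 reads in a library and passed no test against proliferating cells or the controls.

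COL15A1 and COL18A1, the multiplexins, carry interrupted helices and sit between basement membranes and fibrils. COL15A1 was at 4712, 4845 and 4642 in proliferating cells, 941, 712 and 675 in NT3 and 975, 1051 and 923 in NT4. It was at 1204, 1467 and 1363 in the CCND1 knockdown, 651, 495 and 603 in the CDK4 knockdown, 1320.1, 1205 and 1203 in the CDK6 knockdown and 1207, 706 and 914 in the dual knockdown. Proliferating libraries lay far above all others, the CDK4 knockdown lay below every control library, and the CCND1 and CDK6 knockdowns lay above every control library. COL15A1 was lower in the controls than in proliferating cells (-2.45 ± 0.12, limma adjusted p = 1.40e-13), the largest fall among the 31 genes. It rose by 0.63 ± 0.12 in the CCND1 knockdown (limma adjusted p = 5.99e-04) and 0.52 ± 0.12 in the CDK6 knockdown (limma adjusted p = 0.00203), and fell in the CDK4 knockdown (-0.58 ± 0.12, limma adjusted p = 0.00231). The CDK6 call missed the threshold against NT4 alone (adjusted p up to 0.0789). The dual knockdown overlapped the controls (0.08 ± 0.12), and COL15A1 was higher in the CDK6 than in the CDK4 knockdown by 1.10 ± 0.14, limma adjusted p = 3.21e-06.

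COL18A1, the parent chain of endostatin, was at 5382, 5221 and 5114 in proliferating cells, 2109, 1938 and 1938 in NT3 and 3847, 3777 and 3528 in NT4. It was at 3109, 3329.9 and 2871 in the CCND1 knockdown, 3154, 3169.7 and 3256 in the CDK4 knockdown, 3159, 3193 and 3013 in the CDK6 knockdown and 3951, 3660.2 and 3767 in the dual knockdown. NT3 was the lowest group, NT4 and the dual knockdown overlapped, and the CCND1, CDK4 and CDK6 knockdowns lay between NT3 and NT4. NT4 exceeded NT3 by 0.90 ± 0.06, limma adjusted p = 3.75e-10. Against the mean of the controls COL18A1 rose in each knockdown (0.19 to 0.48), but against NT4 alone its changes were -0.26, -0.22 and -0.25 in the CCND1, CDK4 and CDK6 knockdowns and 0.03 in the dual knockdown. The CCND1 call missed the threshold without CCND1 knockdown replicate 2 (adjusted p up to 0.0833), and with only the compared groups fitted (up to 0.0701). COL18A1 was lower in the controls than in proliferating cells (-0.94 ± 0.05, limma adjusted p = 2.74e-13), and its exons share 18.5% of their bases with SLC19A1 on the opposite strand.

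Transmembrane collagens are single-pass proteins shed from the cell surface. COL13A1, found at cell contacts and the neuromuscular junction, was at 995, 959.9 and 999 in proliferating cells, 447, 459.7 and 371 in NT3 and 809, 774 and 731 in NT4. Its knockdown values were 715, 679 and 646 in the CCND1 knockdown, 659, 618 and 681 in the CDK4 knockdown, 694, 652 and 604 in the CDK6 knockdown and 679, 653 and 642 in the dual knockdown. All knockdown libraries lay between NT3 and NT4. NT4 exceeded NT3 by 0.86 ± 0.08, limma adjusted p = 5.27e-08. Against the mean of the controls its changes were 0.25 ± 0.07 in the CCND1 knockdown, 0.19 ± 0.07 in the CDK4 knockdown, 0.18 ± 0.07 in the CDK6 knockdown and 0.20 ± 0.07 in the dual knockdown, and against NT4 alone they were -0.18, -0.24, -0.25 and -0.23. All but the CDK4 change passed, but the CCND1 call missed the threshold without CCND1 knockdown replicate 1 (adjusted p up to 0.0579), and with only the compared groups fitted or against NT4 alone (up to 0.110). The CDK6 call missed the threshold without NT3 replicate 3, NT4 replicate 3 or CDK6 knockdown replicate 1 or 2 (adjusted p up to 0.191), and with only the compared groups fitted or with only the irradiated groups fitted (up to 0.132). The dual knockdown call missed the threshold without dual knockdown replicate 1 (adjusted p up to 0.0842), and with only the compared groups fitted (up to 0.0853). The difference of the controls from proliferating cells was -0.78 ± 0.07, limma adjusted p = 9.84e-10. COL17A1, a hemidesmosome protein of epithelia, had 23, 34 and 12 reads in NT3, 30, 18 and 31 in NT4, 6, 7 and 15 in the CDK6 knockdown and 7, 3 and 12 in the dual knockdown. COL25A1, a brain collagen, had 3, 1 and 4 reads in proliferating libraries and 6 to 19 in control libraries.

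The knockdowns were also compared with each other, and leaving out 1 library ended 5 of the 10 CDK6 against CDK4 calls, 2 of the 16 dual against CDK4 calls, 5 of the 10 dual against CDK6 calls and 3 of the 10 CCND1 against dual calls. CDK6 against CDK4 knockdown had 8 collagen genes higher and 2 lower (all genes: 17.5% and 17.3%), with COL15A1 (1.10), COL12A1 (0.53) and COL3A1 (0.53) higher and COL5A3 (-0.76) lower. The dual against the CDK4 knockdown had 10 higher and 6 lower (all genes: 15.8% and 14.8%). Among them COL11A1 rose by 0.90, COL3A1 by 0.60, COL5A1 by 0.57 and COL1A1 by 0.52, and COL5A3 was lower (-0.95). Genes with at most 40 reads account for 2 of the former calls and 3 of the latter. The dual against the CDK6 knockdown had 8 higher and 2 lower (all genes: 6.05% and 6.94%), with COL1A1 at 0.71 ± 0.10, limma adjusted p = 3.83e-05 and COL4A1 at 0.56 ± 0.12, limma adjusted p = 0.00336. Thus the type I chains exceeded the level of either single knockdown in the dual knockdown, in all libraries.

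CCND1 against dual knockdown had 5 higher and 5 lower (all genes: 11.2% and 9.12%). Genes with at most 40 reads account for 2 of the higher calls. COL1A1 was lower in the CCND1 knockdown than in the dual knockdown (-0.52 ± 0.10, limma adjusted p = 5.98e-04) and so was COL1A2 (-0.55 ± 0.08, limma adjusted p = 6.06e-05), whereas COL5A3 was higher by 0.83 ± 0.12, limma adjusted p = 4.75e-05. COL11A1 did not pass this test (difference 0.04 ± 0.12, limma adjusted p = 0.872). Against proliferating cells the dual knockdown had 11 collagen genes higher and 14 lower (all genes: 32.7% and 32.9%). Of these, 2 of the higher and 1 of the lower have at most 40 reads. COL1A1 and COL1A2 lay above the proliferating level by 0.50 ± 0.10 and 0.56 ± 0.08 (limma adjusted p = 1.55e-04 and 4.84e-06), and COL11A1 by 1.66 ± 0.12 (limma adjusted p = 5.67e-11). COL4A5 and COL4A6 were also above the proliferating level, by 1.26 and 1.14. COL5A3 (-3.41 ± 0.12), COL15A1 (-2.36 ± 0.14), COL7A1 (-1.07) and COL6A3 (-0.97 ± 0.11) remained below it.

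Each gene was tested for whether its dual knockdown change differed from its CDK4 and CDK6 changes added on the log2 scale. The difference passed for 1 collagen gene above the sum and 1 below it (all genes: 2.63% and 3.71%). COL1A1 lay above the sum by 0.52 ± 0.13, limma adjusted p = 0.0196, and COL4A6 lay below it (-0.64 ± 0.16, limma adjusted p = 0.0193). The COL1A1 departure missed the threshold without CDK4 knockdown replicate 1 or 2, CDK6 knockdown replicate 2 or dual knockdown replicate 1 (adjusted p up to 0.0693), and with no filter on low values, under quantile normalization or with only the compared groups fitted (up to 1). The COL4A6 departure missed the threshold without CDK4 knockdown replicate 1 or 2, CDK6 knockdown replicate 2 or dual knockdown replicate 3 (adjusted p up to 0.0720), and against NT4 alone (up to 0.454). Without NT3 replicate 3 the test passed for 9 collagen genes, 8 above the sum and 1 below.

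Genes that process collagen were taken from 7 lists. Of 18 tested genes for chain modification and folding in the endoplasmic reticulum, 11 were higher and 0 lower in the dual knockdown than in the controls, and 8 were higher and 4 lower in the controls than in proliferating cells. Their median changes were 0.20 and 0.05, where medians over all genes were 0.00 and -0.03. Between the controls, 4 of these 18 genes were higher and 5 lower in NT4 than in NT3. In the CCND1, CDK4 and CDK6 knockdowns 5, 6 and 6 of them were higher and 5, 3 and 6 lower. For the counts of these lists, 22.5% of all genes were higher and 21.5% lower in the dual knockdown, and 32.6% were higher and 36.1% lower in the controls against proliferating cells. These shares were 16.7% and 14.4% in the CCND1 knockdown, 8.46% and 7.55% in the CDK4 knockdown and 21.1% and 20.8% in the CDK6 knockdown. In NT4 against NT3 they were 14.7% and 13.1%. COLGALT2, which adds galactose to hydroxylysine, rose in the dual knockdown by 0.78 ± 0.16, limma adjusted p = 4.88e-04. It also rose in the CDK6 knockdown by 0.86 ± 0.16, limma adjusted p = 2.01e-04. In the controls against proliferating cells, 2 of 6 secretion genes were higher and 2 lower, 2 of 5 propeptide removal genes were higher and 3 lower, and 2 of 6 cross-linking genes were higher and 2 lower. Of 6 secretion genes, 4 were higher and 0 lower in the dual knockdown, and of 6 cross-linking genes 4 were higher and 1 lower. In the CCND1, CDK4 and CDK6 knockdowns 3, 2 and 3 secretion genes were higher and 0 lower in each. For cross-linking genes the counts were 5, 2 and 5 higher and 0, 0 and 1 lower. Between the controls, 0 secretion genes were higher and 3 lower in NT4 than in NT3, and 2 cross-linking genes were higher and 2 lower. LOX, a lysyl oxidase, had a mean of 20715 in the controls and 34140.4 in the dual knockdown (0.78 ± 0.06, limma adjusted p = 2.27e-09). LOX was also higher in NT4 than in NT3 by 0.80 ± 0.07, limma adjusted p = 6.16e-08, and its rise in the dual knockdown was 1.18 against NT3 alone (adjusted p = 4.17e-11) and 0.38 against NT4 alone (adjusted p = 3.26e-04). Propeptide removal had 2 higher and 1 lower of 5 in the dual knockdown, led by ADAMTS2, the procollagen N-proteinase, at 1.53 ± 0.08, limma adjusted p = 4.36e-12. In the CCND1, CDK4 and CDK6 knockdowns 1, 1 and 1 of the 5 were higher and 0, 0 and 1 lower. ADAMTS2 rose in these 3 as well, by 0.80, 0.95 and 0.81 in that order. ADAMTS2 differed between the controls by 1.10 ± 0.10, and its dual knockdown change was 0.98 against NT4 alone (adjusted p = 5.23e-08). In the controls against proliferating cells PCOLCE, the enhancer of C-proteinase, was lower (-2.53 ± 0.10, limma adjusted p = 1.26e-15).

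Of 5 collagen-cleaving genes, 5 were higher in the controls than in proliferating cells, and in the dual knockdown 1 was higher and 3 lower than in the controls (all genes: 32.6% higher in the former comparison, 22.5% higher and 21.5% lower in the latter). In the CCND1 knockdown 1 was higher and 3 lower, in the CDK4 knockdown 0 and 1, and in the CDK6 knockdown 0 and 4. Of all genes, 16.7% and 14.4%, 8.46% and 7.55%, and 21.1% and 20.8% were higher and lower in that order. MMP1, the interstitial collagenase, was at 2107, 2337 and 2335 in proliferating cells, 6595, 7543 and 7986 in NT3, 5856, 6485 and 6567 in NT4 and 1994, 2190.4 and 1955 in the dual knockdown. It was higher in the controls by 1.59 ± 0.07, limma adjusted p = 4.32e-14 and fell in the dual knockdown (-1.73 ± 0.07, limma adjusted p = 1.70e-13). MMP1 also fell in the CDK6 knockdown (-1.03 ± 0.07, limma adjusted p = 8.26e-10). Its mean was 6839 in the controls, 8949 in the CCND1 knockdown and 6207 in the CDK4 knockdown. CTSK, the collagen-degrading cathepsin K, fell in the dual knockdown (-1.01 ± 0.07, limma adjusted p = 4.38e-10). It also fell in the CCND1 and CDK4 knockdowns (-0.56 and -0.43), and its mean was 552 in the CDK6 knockdown against 825 in the controls. In the controls against proliferating cells, 2 of 7 collagen receptors were higher and 2 lower, and 5 of 9 fibril-binding genes were higher and 2 lower. Of the 7 receptors, 2 were higher and 2 lower in the dual knockdown, and of the 9 fibril-binding proteoglycans and glycoproteins 3 were higher and 2 lower. In the CCND1, CDK4 and CDK6 knockdowns 4, 0 and 4 receptors were higher and 0, 1 and 1 lower. For the fibril-binding genes these counts were 5, 1 and 4 higher and 2, 2 and 2 lower. POSTN, a matricellular binder of type I collagen, rose in the controls by 1.85 ± 0.07 (limma adjusted p = 7.77e-16) and fell in the dual knockdown (-0.56 ± 0.07, limma adjusted p = 7.29e-07). Its changes in the CCND1, CDK4 and CDK6 knockdowns were -0.58, 0.67 and -0.99, and all 3 passed. POSTN was at 1515, 1428 and 1426 in NT3, 2527, 2122 and 2583 in NT4 and 1304, 1166 and 1334 in the dual knockdown, a change of -0.20 against NT3 alone (adjusted p = 0.0406) and -0.92 against NT4 alone (adjusted p = 6.85e-09).

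Marker lists differed between groups beside these results. Of 8 fibroblast markers, 2 were higher and 6 lower in the controls than in proliferating cells, and 5 were higher and 0 lower in the dual knockdown than in the controls. Of all genes, 32.6% were higher and 36.1% lower in the former comparison, and 22.5% and 21.5% in the latter. For the smooth muscle markers ACTA2, TAGLN, CNN1, MYH11 and DES the summed value was 26521 to 27507 in proliferating libraries, 15076 to 18889 in NT3, 18221 to 21442 in NT4 and 19234 to 21496 in the CDK4 knockdown. It was 33694 to 35016 in the CCND1 knockdown, 37764 to 40713 in the CDK6 knockdown and 36534 to 38898 in the dual knockdown. Of the 5, 4 were tested and 3 rose in the dual knockdown, and MYH11, a defining smooth muscle gene, did not exceed 1.92 in any library. Summed blood markers were at 654 to 1604 (2 of 4 tested) and summed cartilage markers at 905 to 1392 (2 of 3 tested). Nearly all of the blood sum was CD68, at 650 to 1588, while CD14 was at 2.66 to 38.0. The other 2 blood markers were below 10 in every library. ACAN, of the cartilage list, did not exceed 9.71. The part of these markers in the collagen results was not tested. Fewer cells of a type and less RNA per cell cannot be told apart in these bulk libraries.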

How the data were processed

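RNA from 21 IMR90 libraries, 3 in each of 7 groups, was captured by poly(A) selection, per the labels' protocols. Processing steps are known only from the submitters' processing notes, which list Trimmomatic 0.38.1, HISAT2 2.2.1, featureCounts 2.0.3, FastQC 0.74, MultiQC, DESeq2 2.11.40.8 and the build hg38 (GRCh38). The gene annotation and the strand setting are not given in the sources used here. The deposited table holds a signal per gene and library, read counts that the authors divided by a size factor of each library, as its values show: 100% of them were whole multiples of a library's step within a tolerance of 0.1 reads. The recovered reads summed to 12892442 to 21822152 per library, and counting error is largest for chains with few reads.

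Groups were taken from column names, which carry no replicate number, so numbers follow column order and are names only. Genes with a value of 10 or more in 3 or more libraries were fitted with limma 3.58.1 (R 4.3.3) as log2(value + 1), 1 mean per group over all 7 groups, with p-values adjusted by Benjamini-Hochberg over all 11579 genes. The script was tested on simulated data. Exact permutation tests of chain ratios went through all splits of the compared libraries in Python 3.11.15. Exon lengths and overlaps came from GENCODE 44 and promoters from RefSeq (GRCh38.p14).

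The collagen genes, the 7 lists of collagen-processing genes and the marker lists were chosen with earlier results of these data known. DCN, LUM, FAP and COMP each stand in more than 1 list. Values in every library were given for COL1A1, COL1A2, COL3A1, COL4A1, COL4A2, COL5A1, COL5A2, COL6A1, COL6A2 and COL6A3, and for up to 3 largest rises and falls per comparison among called genes with no overlap between groups and a mean of at least 100 in the higher group. Reads of low genes and values of COL9A2, COL16A1 and COL27A1 were added after they were seen. The rule also chose at most 3 collagen-processing genes per direction and comparison. Alternatives were other pseudocounts, filters, scalings, controls and fits, the omission of each library, fits of the irradiated libraries alone with and without the header-number sets as a replicate block (chosen after seeing the data), and edgeR 4.0.16 and DESeq2 1.42.0 on the recovered reads.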

Additional observations from a re-analysis of the deposited data

Results flagged for a closer look

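The difference between the dual knockdown change and the sum of the CDK4 and CDK6 changes passed its own test for 2 collagen genes. COL1A1 was above the sum by 0.52 on the log2 scale: its changes were 0.19 with CDK4, 0.00 with CDK6 and 0.71 with the dual knockdown. COL4A6 departed by -0.64, with changes of 0.23 with CDK4, -0.0018 with CDK6 and -0.41 with the dual knockdown. Neither departure passed when CDK4 knockdown replicate 1 or 2 or CDK6 knockdown replicate 2 was left out.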

How the results depend on the processing

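Of 372 fold changes of the 31 genes (12 comparisons), 372 kept their direction and side of the threshold with a pseudocount of 0.1, 368 with 10, 367 with edgeR (5 more were called) and 360 with DESeq2 (11 more called, 1 lost). On the recovered reads edgeR called 7984 of all genes in the senescent controls against proliferating cells and 5081 in the dual knockdown. Median centring kept 361 and moved the median of all genes from -0.03 to 0.09 in the senescent controls and from 0.00 to 0.13 in the dual knockdown against proliferating cells, so small differences from proliferating cells depend on the scaling.

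Under quantile normalization 3 fold changes reversed: COL4A4 in the senescent controls (-0.92), COL1A2 in NT4 against NT3 (-0.087) and COL6A3 in the dual knockdown (-0.013). With NT4 alone as the control, COL5A2 in the senescent controls became 0.061 and COL6A3 in the dual knockdown -0.036. COL13A1 became -0.18, -0.24, -0.25 and -0.23 in the CCND1, CDK4, CDK6 and dual knockdowns, and COL18A1 -0.26, -0.22 and -0.25 in the first 3. With NT3 alone, COL4A6 in the CDK6 knockdown became 0.36 and the COL18A1 departure from the sum -0.40. The controls themselves differ in COL13A1, COL18A1, COL4A6, COL5A2 and COL6A3; the cause of the other reversals was not tested.

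Requiring also a log2 change past 1 left 8 collagen genes in the senescent controls, 2 in the CDK6 knockdown, 4 in the dual knockdown, 3 in CDK6 against CDK4, 3 in dual against CDK4, 2 in CCND1 against dual and 9 in dual against proliferating. It left 0 in limma for NT4 against NT3, the CCND1 knockdown, the CDK4 knockdown, dual against CDK6 and the departure, where 13, 13, 11, 16 and 9 genes had an unadjusted p under 0.05 at any size, and edgeR and DESeq2 called 10 and 11, 11 and 10, 5 and 6, 10 and 11, and 2 and 4. Fitting only the compared groups gave 5 calls in NT4 against NT3, 4 in the CCND1 knockdown, 2 in the CDK4 knockdown, 17 in CDK6 against CDK4, 17 in CCND1 against dual and 1 departure. The CDK4 knockdown had 2 calls with no filter on low values, 7 under quantile normalization and 10 against NT3 alone. The departure had 1 call with no filter, 1 under quantile normalization, 5 against NT3 alone, 4 against NT4 alone and 4 with DESeq2. The cause of these shifts was not tested.

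Leaving out 1 library gave 22 to 26 calls in the senescent controls, 7 to 11 in NT4 against NT3, 6 to 12 in the CCND1 knockdown (6 without CCND1 knockdown replicate 2), 2 to 8 in the CDK4 knockdown (8 without NT3 replicate 3), 10 to 16 in the CDK6 knockdown and 16 to 21 in the dual knockdown. It gave 7 to 10 in CDK6 against CDK4, 14 to 16 in dual against CDK4, 6 to 11 in dual against CDK6 (6 without CDK6 knockdown replicate 2), 8 to 11 in CCND1 against dual and 20 to 26 in dual against proliferating. The departure gave 0 to 9 calls (9 without NT3 replicate 3, and 0 in limma without CDK4 knockdown replicate 1 or 2 or CDK6 knockdown replicate 2). The labels' replicate numbers are not in the column names and paired no libraries. The sets of consecutive header numbers were tried as a replicate block on the irradiated libraries, chosen after seeing the data. Deviations from group means correlated at 0.023 on average over 45 pairs of libraries of the same set, 1 of them over 0.1, and at -0.011 over 90 pairs of different sets. Of the 18 libraries, 13 were on average closest to their own set, a hint from the data only, and the sets were not taken as pairs. With the replicate block, calls were 12 in NT4 against NT3 and 9, 4, 14 and 20 in the CCND1, CDK4, CDK6 and dual knockdowns, and 9 fold changes gained and 3 lost a call. The same libraries with no replicate block gave 2 calls in the CDK4 knockdown. At most 40 reads in a library lie behind COL8A2, COL17A1, COL10A1, COL25A1, COL4A4, COL9A3 and COL2A1.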
